A study of Mus musculus with 8 samples.

Results

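The genes described here are 4 STAT transcription factors (Stat2, Stat3, Stat5a and Stat6) and 4 members of the SOCS family of cytokine-signalling inhibitors (Socs1, Socs2, Socs3 and Cish). They were chosen by name and found on the arrays through the gene symbol of each probe. All 8 had a probe and passed the intensity filter, out of 8793 genes that passed and 15946 with a probe.

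The cells were thioglycollate-elicited peritoneal macrophages, recruited to the abdominal cavity of C57BL/6 mice by an irritant, and their RNA was hybridised to 8 Illumina mouse expression arrays. They carried a scrambled control siRNA (siCtrl), an siRNA directed at the histone methyltransferase MLL (siMLL) or one directed at the ETS-family factor GABP (siGABP). They were then left untreated or exposed to Kdo2 lipid A (KLA), an agonist of the lipopolysaccharide receptor TLR4, for 6 h. There were 3 arrays of siMLL untreated cells and 1 array of each of the other 5 groups, and no array comes from cells without an siRNA. Nothing in the labels states that the 3 numbered siMLL untreated replicates are separate cultures or mice, so p-values measure only the spread between these arrays, which may be technical. Neither the age of the mice nor the GABP subunit or MLL gene that was targeted is given in the labels.

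STAT factors wait in the cytoplasm until a cytokine binds its receptor. Receptor-bound Janus kinases (JAKs) then phosphorylate them, and STAT dimers move to the nucleus and switch on target genes. Among those targets are the SOCS genes, whose proteins bind the receptors or the JAKs and shut the signal off, a negative feedback loop. In macrophages, TLR4 itself uses other signalling routes, but it induces cytokines such as interferon-β and interleukin 6 that act back on the same cells through JAKs and STATs.

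Sequence upstream of the start site is shown for Socs1, Socs3 and Stat2, because these windows hold letters of the kind that STAT-containing complexes bind. RefSeq promoter sequence on build GRCm38.p6 matched 7 of the 8 genes, and the 250 bases before each start were searched on both strands. Capitals mark the matches. In Socs1 (chr16:10785537-10785786, minus strand) they are a pair of overlapping cores of the interferon-stimulated response element, here a pair of GAAA runs with 2 bases between them, at 83 to 74 and 77 to 68 bases before the start. In Socs3 (chr11:117969367-117969616, minus strand) they are the general STAT site TTCNNNGAA, at 154 to 146 bases before the start. In Stat2 (chr10:128270248-128270497, plus strand) they are a response element core on the opposite strand, at 222 to 213 bases, and the wider-spaced STAT site preferred by STAT6, TTC and GAA with 4 bases between them, at 210 to 201 bases.
Socs1: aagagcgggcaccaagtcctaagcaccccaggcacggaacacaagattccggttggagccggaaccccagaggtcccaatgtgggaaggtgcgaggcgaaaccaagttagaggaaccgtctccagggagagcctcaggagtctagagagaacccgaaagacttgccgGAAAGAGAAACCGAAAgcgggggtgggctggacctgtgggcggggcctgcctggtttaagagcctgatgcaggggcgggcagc
Socs3: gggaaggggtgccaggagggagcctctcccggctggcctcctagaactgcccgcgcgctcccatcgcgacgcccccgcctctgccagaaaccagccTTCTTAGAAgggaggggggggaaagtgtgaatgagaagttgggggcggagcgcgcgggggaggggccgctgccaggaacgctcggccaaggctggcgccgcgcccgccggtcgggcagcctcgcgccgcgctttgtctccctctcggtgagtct
Stat2: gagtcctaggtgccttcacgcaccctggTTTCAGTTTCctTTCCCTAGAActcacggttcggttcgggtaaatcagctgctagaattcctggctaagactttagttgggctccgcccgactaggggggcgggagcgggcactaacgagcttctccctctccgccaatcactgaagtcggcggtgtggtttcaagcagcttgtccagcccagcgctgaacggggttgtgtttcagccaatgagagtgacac

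Matches of this kind occur in many windows. The response element core was present in 2.98% of 32851 RefSeq windows of the same length, the general STAT site in 7.02% and the STAT6-type site in 5.85%. A match to the NF-κB consensus was present in 3.9% of windows and, among these genes, in 1 of the 2 windows of Stat5a, at 234 to 225 bases before the start. The windows of Stat3, Stat6 and Cish held none of these motifs. The ETS core CCGGAAG, of the type GABP binds (6.91% of windows), and the TATA box letters TATAAA (12.4%) were found in none of the windows of the 7 genes. Among the windows of genes that passed the filter, these shares were 13% and 7.65%.

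The arrays had the same distribution of values, so every difference is relative to the other genes. Replicate siMLL untreated arrays correlated across genes at r = 0.9962 to 0.9975, arrays of the same KLA state with different siRNAs at 0.9874 to 0.9944, and arrays of opposite KLA state at 0.9051 to 0.9273. With siGABP, Gabpa, whose protein binds DNA, was 2.03-fold lower (adjusted p = 0.000211, limma) and its partner Gabpb1 1.96-fold higher (adjusted p = 0.000155). Kmt2a, the gene for MLL, was not among the genes tested, so the siMLL label has no such check. Of 9 macrophage markers with a probe, 7 passed the filter, including Adgre1, Itgam, Cd14 and Lyz2, while Msr1 and Timd4 did not. Their summed intensity was 38526 to 42223 in untreated and 34265 to 43288 in KLA arrays. Most of this sum came from Lyz2, at log2 14.49 to 15.12 over the 8 arrays, so it says little about the other markers. None of 4 B cell markers passed, and neither did Cd3e, Cd3g, Cd4, Cd8a and Ncr1 of the T and NK cell list (2 of 7 passed) or Elane, Mpo, Camp and Ngp of the neutrophil list (2 of 8 passed). The neutrophil markers that passed were Cxcr2 and S100a8, and S100a8 was well above the filter, at log2 9.36 to 9.79 over the 8 arrays. Summed neutrophil marker intensity was 1624 to 1839 untreated and 1792 to 1831 with KLA. Mesothelial and fibroblast markers passed for 6 of 8 genes and summed to 4123 to 5058 untreated and 4187 to 4651 with KLA. Of the measured markers, KLA raised 3 and lowered 2 of 7 for macrophages and raised 1 of 3 for dendritic cells. Over all genes, KLA raised 20% and lowered 36.8% at the same threshold (adjusted p under 0.05, limma), so these counts do not single out the markers. Summed dendritic cell marker intensity was 746 to 789 untreated and 813 to 840 with KLA. The part of changes in cell content in the results was not tested.

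KLA raised 7 of the 8 transcripts, all but Stat6. Values are background-corrected log2 intensities, in which 1 unit is a doubling, and the deposited linear intensities are given where dimness matters. A gene was called when its adjusted p in limma was under 0.05 over 8793 genes. KLA called 56.8% of all genes, 20% as higher and 36.8% as lower. The median log2 KLA response was 2.02 over the 8 genes and -0.04 over all genes. For the 7 genes, each of the 3 KLA arrays lay above each of the 5 untreated arrays, which held for 17.5% of all genes. RNA from a whole culture does not separate more transcript per cell from more cells that carry it.

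**Figure D1:**
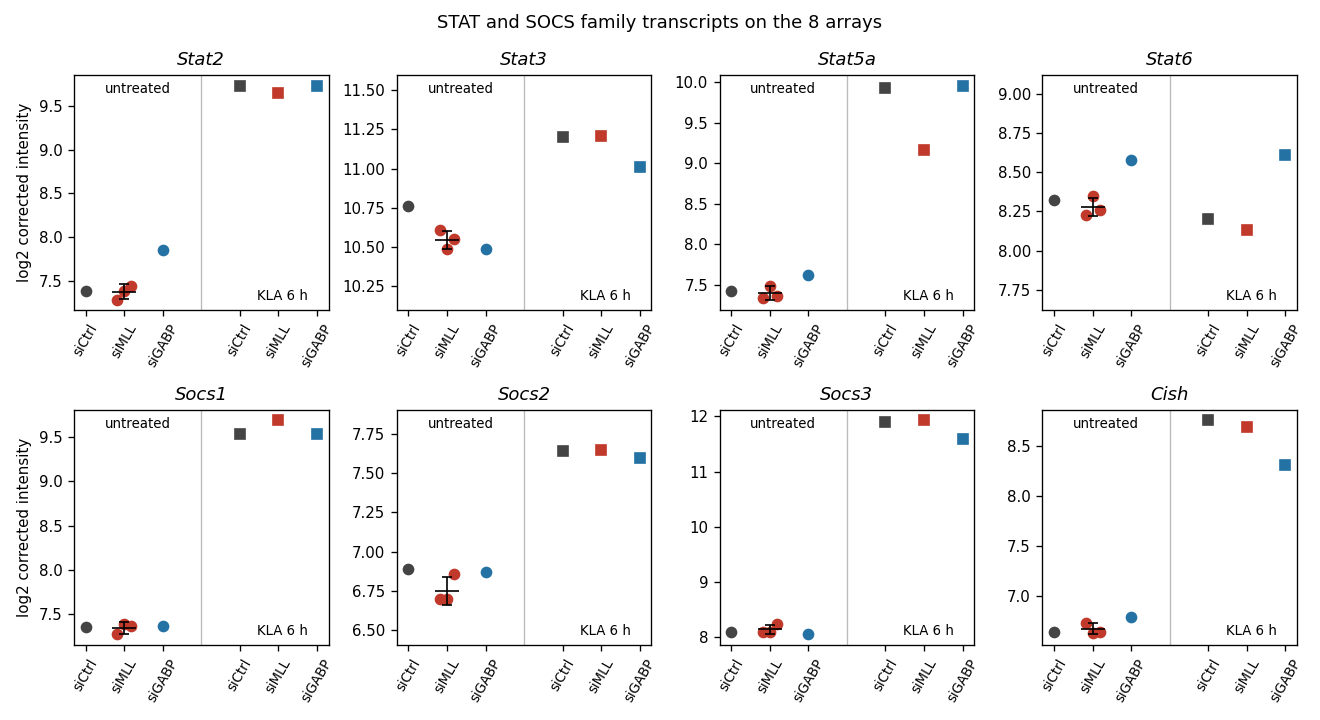
Background-corrected log2 intensity (vertical axes, each with its own range) of the 8 genes on the 8 arrays, by siRNA and KLA state; circles are untreated and squares KLA arrays, and the bar is the mean ± SD of the 3 siMLL untreated arrays. The KLA squares lie above all untreated circles for every gene except Stat6, where the siGABP arrays lie above the others.

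Stat2 joins the interferon-activated complex ISGF3 with IRF9 and carries its transactivation domain. Untreated arrays read 7.29, 7.39 and 7.45 with siMLL (mean 7.38 ± 0.08 SD, n = 3), 7.39 with siCtrl and 7.86 with siGABP. KLA arrays read 9.73 with siCtrl, 9.64 with siMLL and 9.73 with siGABP. The KLA arrays were thus nearly level, within 0.09 of each other, while the siGABP untreated array stood 0.47 above siCtrl, beyond the 0.16 spanned by the siMLL triplicate. Averaged over the siRNAs, Stat2 rose 4.5-fold with KLA (log2 2.17 ± 0.08 SE, adjusted p = 1e-09), the 145th largest change in size of 8793.

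Stat3 is the main signal carrier of the interleukin 6 and interleukin 10 receptors. It was bright on every array and moved little. Untreated arrays read 10.61, 10.49 and 10.55 with siMLL (mean 10.55 ± 0.06 SD, n = 3), 10.76 with siCtrl and 10.49 with siGABP. KLA arrays read 11.2 with siCtrl, 11.21 with siMLL and 11.01 with siGABP. The groups did not overlap, but the gap between the highest untreated and the lowest KLA array was only 0.24. The rise of 1.47-fold (log2 0.56 ± 0.06 SE, adjusted p = 1.09e-05) ranked 1769th in size. A second Stat3 probe gave 0.51 ± 0.07 SE (adjusted p = 6.29e-05).

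Stat5a carries signals of granulocyte-macrophage colony-stimulating factor and related cytokines. Untreated arrays read 7.34, 7.49 and 7.37 with siMLL (mean 7.40 ± 0.08 SD, n = 3), 7.42 with siCtrl and 7.62 with siGABP. KLA arrays read 9.93 with siCtrl, 9.17 with siMLL and 9.96 with siGABP. The siMLL KLA array stood apart from the other KLA arrays, 0.76 below siCtrl, where the triplicate spanned 0.15. On the linear scale it read 609.3, against 1008.4 with siCtrl and 1032 with siGABP. Stat5a rose 4.42-fold with KLA on average (log2 2.14 ± 0.11 SE, adjusted p = 1.99e-08).

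Stat6 carries interleukin 4 and interleukin 13 signals and drives alternative activation of macrophages. It was the 1 gene not called for the KLA response. Untreated arrays read 8.23, 8.35 and 8.26 with siMLL (mean 8.28 ± 0.06 SD, n = 3), 8.32 with siCtrl and 8.58 with siGABP. KLA arrays read 8.2 with siCtrl, 8.13 with siMLL and 8.61 with siGABP. KLA and untreated arrays overlapped. The fitted difference was -0.09 ± 0.06 SE (95% interval -0.22 to 0.04, adjusted p = 0.22). A second Stat6 probe lay below the filter, at 6.35 to 6.62 over the 8 arrays.

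Socs1 blocks JAK activity directly and restrains interferon signalling. Untreated arrays read 7.27, 7.39 and 7.36 with siMLL (mean 7.34 ± 0.07 SD, n = 3), 7.35 with siCtrl and 7.37 with siGABP. KLA arrays read 9.53 with siCtrl, 9.69 with siMLL and 9.54 with siGABP. The 6 groups formed a low and a high level with a gap of 2.14 between the nearest arrays. The siRNA groups differed by at most 0.16 within the KLA state. Socs1 rose 4.76-fold (log2 2.25 ± 0.06 SE, adjusted p = 6.59e-11).

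Socs3 binds the gp130 receptor chain and JAKs and limits interleukin 6 signalling. It had the largest response of the 8 genes. Untreated arrays read 8.09, 8.1 and 8.23 with siMLL (mean 8.14 ± 0.08 SD, n = 3), 8.1 with siCtrl and 8.05 with siGABP. KLA arrays read 11.9 with siCtrl, 11.93 with siMLL and 11.59 with siGABP. Linear intensities went from 298.2 to 333 in untreated cells to between 3121.9 and 3923.6 with KLA, with the siGABP array the lowest of the KLA arrays. Socs3 rose 13.2-fold (log2 3.72 ± 0.07 SE, adjusted p = 2.2e-12) and ranked 36th of all genes in size of response.

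Cish and Socs2 are best known as inhibitors induced by STAT5, Socs2 in growth hormone signalling. Cish read 6.73, 6.63 and 6.64 on the siMLL untreated arrays (mean 6.67 ± 0.05 SD, n = 3), 6.64 with siCtrl and 6.79 with siGABP. With KLA it read 8.76 with siCtrl, 8.69 with siMLL and 8.31 with siGABP. The lowest KLA array was the siGABP array, 0.37 below siMLL and beyond the triplicate's span of 0.1. Cish rose 3.75-fold (log2 1.91 ± 0.09 SE, adjusted p = 7.43e-09). Socs2 read 6.7, 6.7 and 6.86 on the siMLL untreated arrays (mean 6.75 ± 0.09 SD, n = 3), 6.89 with siCtrl and 6.87 with siGABP, and 7.64, 7.65 and 7.6 with KLA in siCtrl, siMLL and siGABP cells. Its KLA arrays lay within 0.05 of each other. Socs2 rose 1.75-fold (log2 0.81 ± 0.06 SE, adjusted p = 5.78e-07).

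Untreated Cish and Socs2 were close to the dim end of the array. Their deposited intensities were 132.1 to 143.3 for Cish and 136.8 to 151.3 for Socs2, near the median of all probes (139.5). Cish was above the filter level of 6.73 on 1 of 5 untreated arrays and Socs2 on 3 of 5, so Cish passed the filter through its KLA arrays. The folds of dim probes are understated, since background remains in both terms. Tested without the filter, over 15946 genes, each of the 8 genes stayed on the same side of the threshold for the KLA response.

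**Figure D2:**
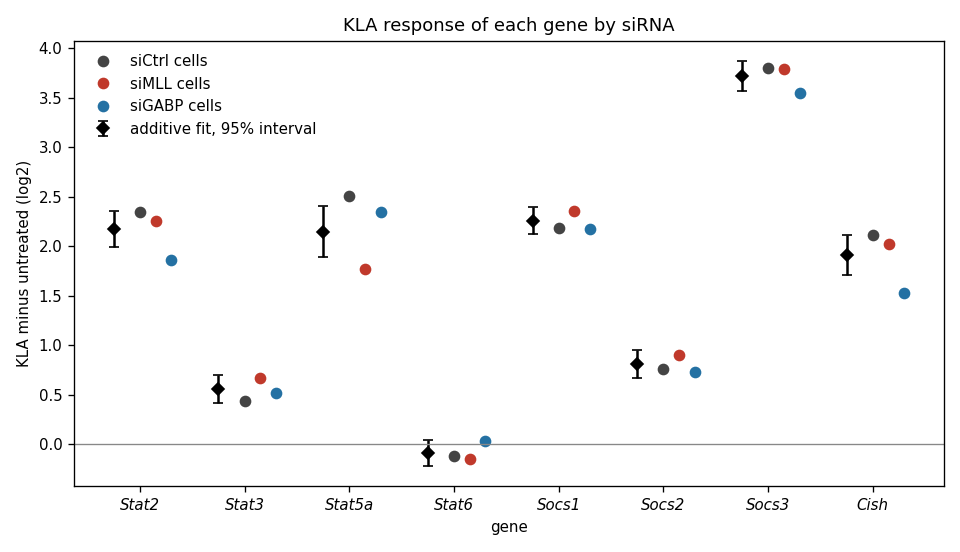
KLA minus untreated log2 intensity (vertical axis) for each gene in siCtrl, siMLL and siGABP cells (coloured points), beside the additive fit with its 95% interval (black diamonds). The points of a gene lie close together for Socs1, Socs2 and Stat3, while Stat5a in siMLL cells (1.77) and Cish (1.53) and Stat2 (1.86) in siGABP cells lie lowest for their gene.

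The size of the KLA response did not sort the genes by family. In siCtrl cells the log2 response was 3.80 for Socs3, 2.51 for Stat5a, 2.34 for Stat2, 2.18 for Socs1 and 2.11 for Cish, and it was 0.76 for Socs2, 0.44 for Stat3 and -0.12 for Stat6. Both families thus held a strongly and a weakly responding member. These are differences on separate probes, and the levels of different genes are not compared. Untreated Socs2 was dim, so its response is understated. Its fitted rise over the siRNAs ran from 0.66 to 1.06 with other processing.

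**Figure D3:**
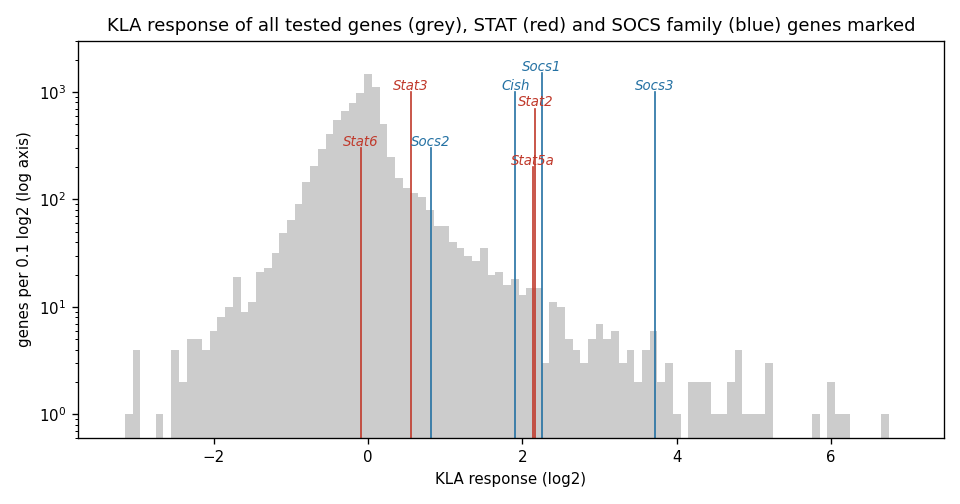
Number of genes per 0.1 log2 of KLA response (vertical log axis) over the 8793 genes tested (grey), with the response of the STAT genes (red lines) and the SOCS family genes (blue lines); line heights only separate the names. Socs3 (3.72) lies far out in the right tail, Stat2, Stat5a, Socs1 and Cish lie near 2, and Stat6 (-0.09) lies in the central peak.

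The next question was whether targeting MLL or GABP changed these transcripts. With siMLL, none of the 8 genes was called, where 6.94% of all genes were. The largest difference was that of Stat5a, -0.30 ± 0.13 SE (95% interval -0.59 to 0, adjusted p = 0.223), and the others ranged from -0.13 for Stat3 to 0.05 for Socs1. This Stat5a value covers -0.02 in untreated and -0.76 in KLA-treated cells. An alternative fit with a mean per group did call Stat5a. In untreated cells alone, where 1.89% of all genes were called, none of the 8 was. Stat3 came nearest, at -0.22 ± 0.08 SE (unadjusted p = 0.0341, adjusted p = 0.251), and every other gene differed by less than 0.15 from siCtrl. At an unadjusted p under 0.05 the siMLL effect would include 1966 genes and that in untreated cells 1492.

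With siGABP, Stat6 was the 1 gene called, among 11.3% of all genes called and 5.81% called as higher. It was 1.26-fold higher (log2 0.33 ± 0.08 SE, 95% interval 0.15 to 0.50, adjusted p = 0.0244). The siGABP arrays exceeded siCtrl by 0.25 untreated and by 0.40 with KLA, and both lay above all 6 other arrays. The second, dimmer Stat6 probe differed by 0.01 and -0.01. The call ended without the siCtrl untreated array (0.35, adjusted p = 0.0718), the siCtrl KLA array (0.31, adjusted p = 0.17) or the siGABP KLA array (0.24, adjusted p = 0.236), and when the filter was left out (adjusted p = 0.0613). Stat3 in siGABP cells differed from siCtrl by -0.27 untreated and by -0.20 with KLA. Its fitted difference of -0.24 ± 0.08 SE missed the threshold (adjusted p = 0.0936), as did that of its second probe (-0.23 ± 0.09 SE, adjusted p = 0.132). Stat2 (0.23 ± 0.11 SE, adjusted p = 0.199), Socs3 (-0.18 ± 0.09 SE, adjusted p = 0.214) and Cish (-0.15, adjusted p = 0.462) were not called. Stat5a, Socs1 and Socs2 differed by 0.12, 0.02 and -0.03.

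**Figure D4:**
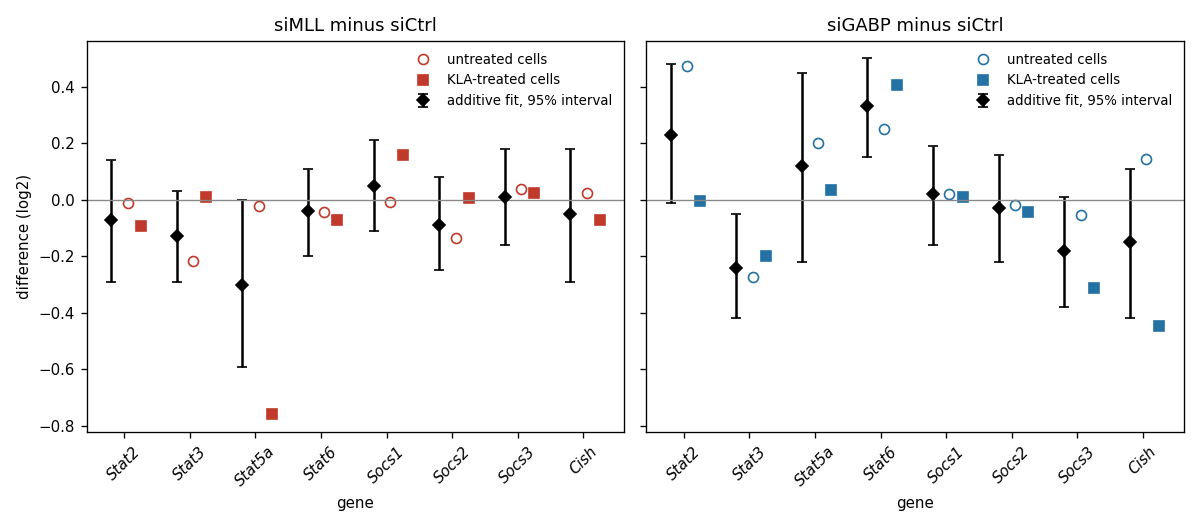
Difference from siCtrl in log2 intensity (vertical axis) for siMLL (left) and siGABP (right), in untreated cells (open circles), KLA-treated cells (squares) and in the additive fit over both states with its 95% interval (diamonds). Stat5a with siMLL (-0.76) and Cish with siGABP (-0.45) are low in KLA-treated cells only, and Stat6 with siGABP is high in both states (0.25 and 0.40).

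For 3 genes the siRNA difference was unequal between KLA states. The log2 KLA response of Stat5a was 2.51 in siCtrl and 1.77 in siMLL cells, a difference of -0.74 ± 0.14 SE (95% interval -1.07 to -0.41, unadjusted p = 0.000988). That of Cish was 2.11 in siCtrl and 1.53 in siGABP cells, a difference of -0.59 ± 0.14 SE (95% interval -0.92 to -0.25, unadjusted p = 0.00383). Stat2 responded by 2.34 in siCtrl and 1.86 in siGABP cells, a difference of -0.48 ± 0.16 SE (unadjusted p = 0.0171). None passed over all genes (adjusted p = 0.365, 0.387 and 0.526 in limma). Each of these tests called 0.0114% of all genes, a single gene, with 640 and 747 genes at an unadjusted p under 0.05. These differences came from different arrays. For Stat2 it lay in the untreated arrays (0.47 above siCtrl, and level with it under KLA), for Stat5a and Cish mostly in the KLA arrays. Each arm except siMLL untreated was a single array. The only replicate spread was that of the siMLL untreated triplicate, which limma moderated with the spread over all genes.

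Among the markers of other cells, only some mesothelial genes were called with the siRNAs. Upk3b and Wt1, markers of mesothelium, were lower with siMLL (-0.43 and -0.35, adjusted p = 0.00714 and 0.0125) and with siGABP (-0.48 and -0.42, adjusted p = 0.00506 and 0.00677), 2 of 6 measured genes of that list. Both comparisons use the same 2 siCtrl arrays, so the siMLL and siGABP calls are not independent. Upk3b read 7.63 and 7.48 on the siCtrl arrays and 7.03 to 7.22 on all others. Wt1 read 8.67 and 8.71 on the siCtrl arrays and 8.18 to 8.42 on all others. The other 4 measured genes of the list were not called. With siMLL and siGABP they gave -0.16 and -0.39 (Col1a2), -0.13 and -0.12 (Msln), -0.03 and 0.01 (Dcn), and 0.04 and 0.2 (Col1a1). Over all genes, 2.67% were called lower with siMLL and 5.47% with siGABP. No measured macrophage, neutrophil, dendritic, T, NK or mast cell marker was called with either siRNA. The part of mesothelial RNA in the Stat6 difference was not tested.

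The other genes of the pathway give the setting. For each list, genes had to pass the filter on the mean of all arrays, so a gene may have been measured because KLA raised it, and the counts are a description. Over all genes, 20% were called higher with KLA and 36.8% lower. Among cytokines that signal through JAKs, 9 of 11 measured genes rose with KLA and none fell (median 0.80), with 21 on the array. They included Il27 (log2 4.97 ± 0.09 SE), Il6 (4.66 ± 0.07 SE), Il15 (3.86 ± 0.08 SE) and Il12a (3.81 ± 0.10 SE), whose receptors all signal through STAT factors. Untreated Il27, Il6 and Il12a read 6.18 to 6.35, 6.45 to 6.62 and 6.47 to 6.74, at or below the filter level of 6.73, so they passed through their KLA arrays, their rises are understated and no order among them is read. With KLA, Il6 read 11.28, 11.31 and 11.05 in siCtrl, siMLL and siGABP cells. No cytokine gene was called with siMLL or siGABP.

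Of 22 measured receptor chains, 6 rose, 8 fell and 8 were not called (median -0.02), shares near those of all genes (20% higher and 36.8% lower). Il15ra, which presents interleukin 15, rose by 3.59 ± 0.06 SE and Il13ra1, a subunit of an interleukin 13 receptor that signals through STAT6, by 1.11 ± 0.08 SE. Il7r and the interleukin 10 receptor subunit Il10rb fell by 0.94 and 0.86 on the log2 scale. With siMLL, Il10ra was 1.71-fold lower (-0.77 ± 0.15 SE, adjusted p = 0.0124) and the interferon-γ receptor subunit Ifngr2 1.18-fold lower (adjusted p = 0.0406). Il10ra read 9.86 in siCtrl untreated cells and 8.72 to 8.91 on the siMLL untreated arrays. The siGABP untreated array read 8.77, level with siMLL, so the single siCtrl untreated array stood apart from both. The siGABP difference in Il10ra was -0.58 ± 0.17 SE and was not called (adjusted p = 0.0527, limma). With siGABP, Ifngr2 was 1.96-fold lower (-0.97 ± 0.07 SE, adjusted p = 0.000108), at 11.68 untreated and 10.78 with KLA against 12.62 and 11.77 in siCtrl cells. Csf2rb, the shared chain of the granulocyte-macrophage colony-stimulating factor receptor, was 1.35-fold higher (adjusted p = 0.0203).

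Among the JAKs, 3 of 4 rose, where 20% of all genes were called higher. Jak2 rose 7.66-fold (log2 2.94 ± 0.05 SE, adjusted p = 2.09e-12), from 8.86 to 9.28 on the untreated arrays to 11.81 to 12.22 with KLA. Tyk2 rose by 0.85 and Jak1 by 0.46, and Jak3 gave 0.01 (adjusted p = 0.906). No JAK was called with either siRNA. Irf9, the DNA-binding partner of Stat2, rose by 0.53 ± 0.06 SE and was 1.31-fold lower with siMLL (-0.39 ± 0.08 SE, adjusted p = 0.0113). It read 9.56 to 9.57 on the 3 siMLL untreated arrays and 9.98 with siCtrl. Stat4 gave 0.16 with KLA (adjusted p = 0.124).

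Other SOCS genes moved both ways with KLA. Socs6 fell 2.47-fold with KLA (log2 -1.30 ± 0.07 SE, adjusted p = 3.47e-08) and Socs5 by 0.41, while Socs4 rose by 0.42. Socs6 was also 1.47-fold lower with siGABP (adjusted p = 0.0056). Of 11 measured inhibitors outside the family, 3 rose, 3 fell and 5 were not called (median 0), a share called near the 56.8% of all genes. Usp18, which blocks the interferon receptor, rose 8.17-fold, Ptprc, the CD45 phosphatase, by 0.61 and the phosphatase Ptpn11 by 0.43. The phosphatase Ptpn1, which acts on Jak2 and Tyk2, fell by 0.98, and it was lower with both siMLL (-0.36, adjusted p = 0.0362) and siGABP (-0.46, adjusted p = 0.0166). These Ptpn1 differences share the same siCtrl arrays and are not independent. Pias3, an inhibitor of STAT3, was 1.22-fold higher with siGABP (adjusted p = 0.0496).

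**Figure D5:**
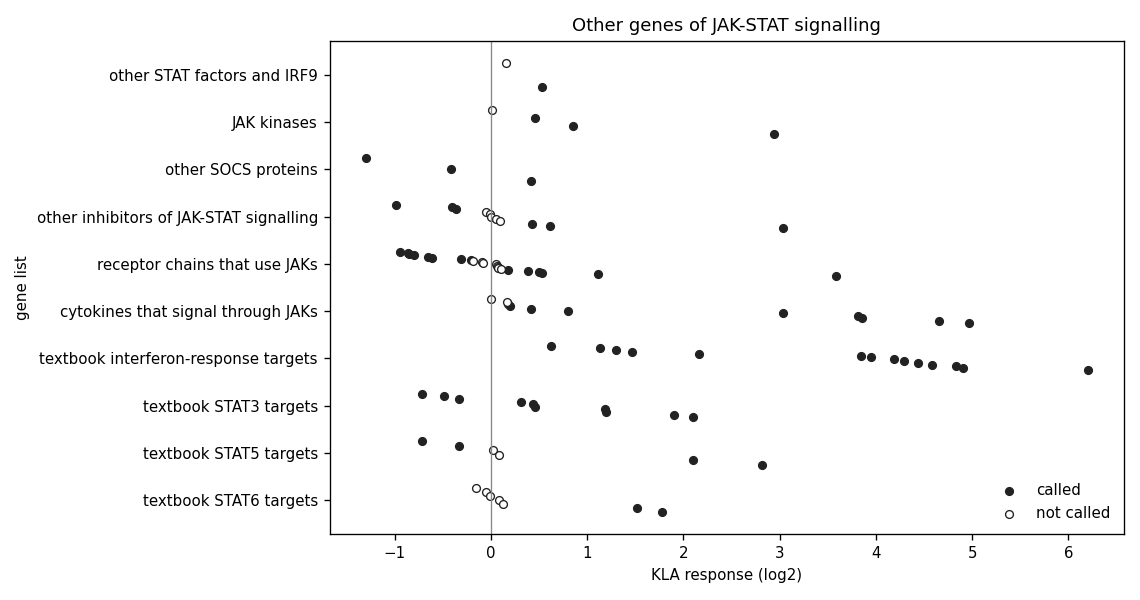
Log2 KLA response (horizontal axis) of each measured gene in 10 lists of the pathway (vertical axis), filled where called and open where not. Interferon-response targets all lie to the right of 0, cytokines reach 4.97, and other SOCS genes and receptor chains lie on both sides of 0.

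Textbook targets of the STAT factors were counted by list, and the lists were not compared with each other. All 14 measured interferon-response targets rose with KLA (median 4.07), where 20% of all genes were called higher. These targets included the chemokine Cxcl10 (6.20 ± 0.11 SE), the ubiquitin-like Isg15 (4.90 ± 0.10 SE), Oasl1 (4.83 ± 0.06 SE) and the antiviral GTPase Mx1 (4.58 ± 0.06 SE). Untreated Cxcl10 read 6.38 to 7.2 and untreated Mx1 6.56 to 6.86, around the filter level of 6.73. Their rises are therefore understated, and no order among the targets is read. None of the 14 was called with siMLL over both states. In untreated siMLL cells 3 of the 14 were lower, namely Ifit2 (-1.03 ± 0.12 SE, adjusted p = 0.0101), Cxcl10 (-0.72 ± 0.10 SE, adjusted p = 0.017) and Ifit3 (-0.59 ± 0.10 SE, adjusted p = 0.0343). Over all genes, 0.705% were called lower in untreated siMLL cells. The Cxcl10 reading in these siMLL arrays, 6.38 to 6.59, was below the filter level. Cxcl10 read 7.2 on the siCtrl and 6.71 on the siGABP untreated array, so the single siCtrl array stood above both siRNAs. Ifit2 and Ifit3 went the other way with siGABP, at 10.39 and 9.65 against 9.84 and 8.78 with siCtrl. Il10ra (-1.05 ± 0.10 SE, adjusted p = 0.00587) and Irf9 (-0.41 ± 0.08 SE, adjusted p = 0.0435) were the other pathway genes called in untreated siMLL cells. With siGABP, Irf7, a transcription factor for interferon genes, was 1.62-fold higher (adjusted p = 0.00322).

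Of 10 measured STAT3 targets 7 rose and 3 fell (median 0.45), where 20% of all genes were called higher and 36.8% lower. The largest rises were those of the kinase Pim1 at 2.10, the AP-1 subunit Junb at 1.90, Bcl3 at 1.20 and Nfil3 at 1.19. With siMLL, Pim1 (-0.48, adjusted p = 0.00789), Junb (-0.43, adjusted p = 0.00714) and the repressor Bcl6 (-0.29, adjusted p = 0.0314) were lower, whereas Stat3 itself was not called. Over all genes, 2.67% were called lower with siMLL. With siGABP, the survival gene Bcl2l1 was 1.56-fold higher (adjusted p = 0.00189) and Nfil3 1.23-fold lower (adjusted p = 0.0473). Of the 6 STAT5 targets, the STAT3 list also holds 3. Ccnd2, a D-type cyclin, rose by 2.82 and Pim1 by 2.10, while Bcl2l1 and Bcl6 fell by 0.71 and 0.33. Untreated Ccnd2 read 6.57 to 6.83 and untreated Bcl3 6.66 to 6.97, around the filter level of 6.73, so their rises are understated. Of 7 measured STAT6 targets 2 rose, the transglutaminase Tgm2 (1.78 ± 0.06 SE) and the transcription factor Klf4 (1.52 ± 0.13 SE), and 5 were not called. Tgm2 was 1.21-fold lower with siMLL (adjusted p = 0.0498). With siGABP, 1 of the 7 STAT6 targets was called, against 11.3% of all genes. It was Chil3, a chitinase-like protein of alternatively activated macrophages, which was lower (log2 -0.45, adjusted p = 0.0146) at 6.71 and 6.69 on the siGABP arrays, below the filter level, and 7.12 and 7.18 with siCtrl.

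Each siRNA call in the other pathway genes was refitted without the filter and without each array in turn. This makes 9 refits over both KLA states, which are not all separate checks. With siMLL, leaving out either siGABP array gave the same fit, so the 2 calls of Ifngr2 are a single fit. With siGABP, leaving out a siMLL array left the difference unchanged and altered only the spread. With siGABP, Ifngr2, Irf7, Bcl2l1 and the marker Upk3b were called in all 9, Socs6 in 8, Ptpn1 and Wt1 in 7, Csf2rb and Chil3 in 6, and Pias3 and Nfil3 in 2. With siMLL, Pim1, Junb, Upk3b and Wt1 were called in 8, Irf9 and Il10ra in 7, Ptpn1, Bcl6 and Tgm2 in 3 and Ifngr2 in 2. The size of a difference often stayed while its call was lost. Ifngr2 with siMLL stayed between -0.26 and -0.24, Irf9 between -0.46 and -0.37, Pim1 between -0.52 and -0.43 and Junb between -0.50 and -0.38. Il10ra with siMLL went to -0.35 (adjusted p = 0.244) without the siCtrl untreated array, and it lost its call at -0.80 (adjusted p = 0.0536) without the siMLL KLA array. In untreated siMLL cells, Ifit3 lost its call without the filter (adjusted p = 0.0731) and without siMLL replicate 1 (adjusted p = 0.0703) or 3 (adjusted p = 0.0904), while Ifit2 and Cxcl10 did not. In the same refits, Irf9 in untreated siMLL cells also lost its call, at -0.42 to -0.41, while Il10ra kept its call. The single siCtrl untreated array, on which all these calls rest, could not be left out.

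The genes with the most similar profiles were sought by the root-mean-square (RMS) difference of log2 values over the 6 group means, each profile centred on its own mean. The nearest to Stat2 were Parp9 (RMS 0.0708), Tap1 (0.072) and Epsti1 (0.0975), and those nearest to Stat5a were Ifi35 (0.141), Tap1 (0.184) and Parp12 (0.191). No gene matched Stat5a as closely as others matched Stat2. Socs3 was nearest to Traf1 (0.139), Il15 (0.152) and Il15ra (0.162), the last 2 being a ligand and its receptor. For Socs1 they were Ets2 (0.0831), Cers6 (0.0901) and Uba7 (0.0929), for Cish Trim21 (0.0733), St3gal1 (0.101) and Sp110 (0.103), and for Socs2 Btc (0.0353), Camk2d (0.0386) and Phc2 (0.044). Stat3 was nearest to Atp13a4 (0.0433), Aste1 (0.0582) and H3c13 (0.0606), and Stat6 to 2610318N02Rik (0.0502), Nfya (0.0508) and Sidt2 (0.0524). The distances were smallest for Socs2, Stat3 and Stat6, the 3 genes with the smallest KLA responses.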

How the data were processed

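The deposited intensity values are on a linear scale and come from BeadStudio 1.5.1.3, as the submitters' processing notes state. The authors had left the 23978 values of each array with the same distribution (largest difference between sorted arrays 0, range 68.5 to 62999), and no background had been subtracted. Another deposited table has 16 value columns whose names match no label, and it was not used here. Detection values were therefore not used, and signal from a dim probe may be background alone. Single arrays in 5 of 6 groups limit the precision.

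Intensities were background-corrected with normexp (offset 50), quantile normalised and log2-transformed. Of all probes, 20917 had 1 gene symbol, 1 had several and 3060 had none, and 20903 symbols were updated by Entrez identifier. The 11989 probes with a mean above the median (6.73) were kept, and the brightest probe stood for each of 8793 genes. limma 3.58.1 in R 4.3.3 fitted siRNA and KLA as additive terms (4 residual degrees of freedom), or a mean per group (2 residual degrees of freedom) for untreated cells alone and for differences between KLA responses. In every fit, limma moderated the spread of each gene toward that of all genes. In the additive fits the residual spread also holds siRNA differences that are unequal between KLA states. Tests were two-sided with Benjamini-Hochberg adjustment, and the fits were tested on simulated data.

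The genes described and the pathway and marker lists were chosen with earlier results of these data known. From each pathway list up to 4 called genes with the largest difference are named for KLA, siMLL and siGABP, and all where 4 or fewer were measured. Genes called in untreated siMLL cells and the markers Upk3b and Wt1 fall outside this rule and were named after their values were seen. Alternatives were no background correction, an offset of 16, no filter, every probe as its own feature, a variance trend, a mean per group and leaving out each array in turn. The refits of other pathway genes were added after seeing the data.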

Additional observations from a re-analysis of the deposited data

Results flagged for a closer look

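The KLA responses of 3 of the 8 genes differed between siRNA groups by a test of the difference itself at an unadjusted p under 0.05, and none of them passed over all genes. All 8 genes were tested for each of the siRNAs, and at the same unadjusted threshold 640 of 8793 genes passed for siMLL and 747 for siGABP. The response of Stat5a was lower in siMLL than in siCtrl cells by a log2 difference of -0.74 (limma, unadjusted p = 0.000988, adjusted p = 0.365), which ranked 26th in size of 8793. That of Cish was lower in siGABP than in siCtrl cells, with a log2 difference of -0.59 (limma, unadjusted p = 0.00383, adjusted p = 0.387). That of Stat2 was lower in siGABP than in siCtrl cells, with a log2 difference of -0.48 (limma, unadjusted p = 0.0171, adjusted p = 0.526). Each rests on single arrays in at least 3 of its 4 arms.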

How the results depend on the processing

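No paired analysis was possible because only the siMLL untreated group carries replicate numbers. The KLA response kept its direction and its side of the threshold for the 8 genes in all 112 recomputed values, with 4441 to 5100 genes called, or 5807 probes when every probe was its own feature. For the siMLL effect 111 of 112 values did so, and with a mean per group Stat5a was called (-0.39, adjusted p = 0.0225), 1 of the 8 genes. For the siGABP effect 107 of 112 did so, with no member called without the filter and 0 to 2 called when single arrays were left out. Cish was the second, at -0.42 (adjusted p = 0.0305) without the siGABP untreated array. All values for untreated siMLL cells (96) and for the differences between KLA responses (80 and 72) kept their side, and none reversed, but single-array arms could not be left out of these comparisons. Many of the values could therefore not move, and for siGABP leaving out an array changed only the spread. Over these, the Stat5a difference between siMLL and siCtrl responses ran from -0.77 to -0.69 (adjusted p = 0.195 to 0.781) and the Cish difference for siGABP from -0.70 to -0.52 (adjusted p = 0.226 to 0.731). In the fits over both KLA states, leaving out a siMLL array left the siGABP differences unchanged. Leaving out either siGABP array gave the same siMLL fit. Counts over all genes moved more. Without the filter, 348 genes were called with siMLL, 542 with siGABP and 75 in untreated siMLL cells. Leaving out single arrays gave 189 to 635 with siMLL, 212 to 1092 with siGABP, 66 to 223 in untreated siMLL cells and 0 to 1 for the siMLL difference in KLA response. Untreated siMLL cells gave 277 without background correction, 67 with an offset of 16 and 301 with a variance trend. Differences in KLA response gave 3 for siMLL without background correction, and 0 for siMLL and 0 for siGABP with an offset of 16. The cause of these moves was not tested. Signal over background limits Cish and Socs2 in untreated cells, and the KLA response of Cish ran from 1.62 to 2.35 over the alternatives.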
